A study of Mus musculus with 8 samples.

Results

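The 9 myelin protein genes described here, Mbp, Mobp, Mog, Mag, Cnp, Cldn11, Mal, Opalin and Ermn, were chosen as a list of myelin proteins and were all found among the 16999 genes that the tables of both genotypes shared (20352 genes in the whole oligodendrocyte table). They were followed in 15604 oligodendrocytes, which the authors had divided into 8 clusters, and in 7421 microglia of the Rag1KO libraries. The cells came from 8 droplet libraries, prepared with the 10x Genomics 3′ chemistry, which counts unique molecular identifiers (UMIs) at 1 end of each transcript. All mice were aged, at 24 months. The 4 groups compared were gray matter of wild-type (WT) mice, C57BL/6 in the labels and C57BL/6J in the methods, with 2 libraries, white matter of WT mice, with 2 libraries, gray matter of Rag1KO (Rag1-/-) mice, with 1 library, and white matter of Rag1KO mice, with 3 libraries.

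Rag1KO mice carry a constitutive deletion in Rag1 (allele Rag1tm1Mom), the recombinase that B and T cells need for their receptors, and so lack mature B and T cells in every tissue. The sample labels give their strain as NOD.129S7(B6)-Rag-1tm1Mom/J, whereas the methods give a B6 background. Gray matter was labelled prefrontal cortex. The study's list of mice gives the same pool of mice for the gray and the white matter library of WT batch 1, likewise for WT batch 2 and Rag1KO batch 1, and a single mouse for each Rag1KO library of batch 2, whereas the methods speak of combining a pair of tissue samples per library. The WT and the Rag1KO libraries were made and aligned as separate experiments, with different upper limits on UMIs per cell and different lists of genes kept. Genotype, experiment and possible strain background therefore cannot be told apart in any WT to Rag1KO comparison below. Rag1 itself did not check the labels. Its 3′ counts were 0 and 3 UMIs in WT gray matter, 0 and 24 in WT white matter, 37 in Rag1KO gray matter and 108, 60 and 96 in Rag1KO white matter, and a 3′ tag can lie outside the deleted part.

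Myelin is a stack of oligodendrocyte membrane wrapped around an axon. Mbp, the myelin basic protein, and Mobp hold the cytoplasmic faces of that membrane together. Mag faces the axon, and Mog sits on the outermost surface and is a target of autoimmune demyelination. Cnp keeps channels of cytoplasm open, and Cldn11 forms the tight junctions between turns of the sheath. Mal is a lipid raft protein of myelin membrane, Opalin a glycosylated transmembrane protein of oligodendrocytes, and Ermn an actin-binding protein of their processes. Most of these genes are switched on together by SOX10 and MYRF when an oligodendrocyte matures. Myelin transcripts are among the most abundant RNAs of brain tissue and are found as free RNA in droplets, and microglia are known to take up myelin debris in aged white matter.

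Promoters were available for 8 of the 9 genes in RefSeq (GRCm38.p6), each a window of 300 bases around the annotated start. The promoters of 3, from genes with contrasting patterns across clusters or genotypes below, are shown 5′ to 3′ on the gene's own strand, with matches to the motifs searched in capitals. The Cldn11 promoter lies at chr3:31149670-31149969 on the plus strand, the Ermn promoter at chr2:58052815-58053114 on the minus strand and the Opalin promoter at chr19:41077064-41077363 on the minus strand.
Cldn11: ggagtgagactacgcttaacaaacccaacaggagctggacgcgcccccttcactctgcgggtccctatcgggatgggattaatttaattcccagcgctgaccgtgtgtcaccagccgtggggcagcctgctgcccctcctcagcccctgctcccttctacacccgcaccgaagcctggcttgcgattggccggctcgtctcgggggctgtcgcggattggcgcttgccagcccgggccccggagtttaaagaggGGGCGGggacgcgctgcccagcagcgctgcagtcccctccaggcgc
Ermn: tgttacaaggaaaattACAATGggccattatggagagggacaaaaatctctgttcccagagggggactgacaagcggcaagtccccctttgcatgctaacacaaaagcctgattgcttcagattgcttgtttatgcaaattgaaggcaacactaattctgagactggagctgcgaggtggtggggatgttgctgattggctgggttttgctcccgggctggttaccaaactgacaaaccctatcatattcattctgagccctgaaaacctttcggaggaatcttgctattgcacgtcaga
Opalin: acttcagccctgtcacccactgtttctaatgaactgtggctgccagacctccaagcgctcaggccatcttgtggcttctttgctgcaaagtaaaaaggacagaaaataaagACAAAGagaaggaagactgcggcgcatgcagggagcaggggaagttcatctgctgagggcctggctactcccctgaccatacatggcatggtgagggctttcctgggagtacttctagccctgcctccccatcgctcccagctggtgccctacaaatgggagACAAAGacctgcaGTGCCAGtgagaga
The Cldn11 window held GGGCGG, a GC box, which 35.7% of 32851 RefSeq promoters held on either strand. In the Ermn window the match was to ACAATG, a SOX-type motif found in 12.6% of promoters. The Opalin window held ACAAAG, another SOX-type motif (18.7% of promoters), and CTGGCAC, a MYRF-type motif that was read here on the opposite strand (5.01% of promoters). ACAAAG was also present in the windows of Cnp, Mag and Mobp, and CTGGCAC in those of Cnp and Mag. CTGGTAC (2.24% of promoters) was found in the Mog window, and none of the 8 windows held TATAAA (13.6% of promoters). In the windows shown no match overlapped another, and a match is a description of the window only.

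The oligodendrocytes per library numbered 284 and 1119 in WT gray matter, 494 and 4106 in WT white matter, 1055 in Rag1KO gray matter and 3055, 1632 and 3859 in Rag1KO white matter, with 2735825 to 43816134 UMIs per library and a median of 8559 to 12622 UMIs per cell. All 7 oligodendrocyte markers that are not members (Sox10, Olig1, Olig2, Myrf, Nkx6-2, Ugt8a and Aspa) were detected in each library, at a summed 3860 to 4434 CPM, the share of a library's oligodendrocyte UMIs scaled to the usual common total. Neuronal markers summed to at most 11.4 CPM. Astrocyte markers were higher in gray matter, at 315 and 266 CPM in WT and 267 CPM in Rag1KO, than in the white matter libraries, at 115 to 163 CPM. Blood markers summed to 0 and 895 CPM in WT gray matter, 467 CPM in Rag1KO gray matter and 0 to 67.3 CPM in white matter, and the part of both lists in the white to gray differences below was not tested. The 8 microglial markers summed to 935 and 604 CPM in the batch 1 WT libraries of gray and white matter and to 82 to 327 CPM in the other 6 libraries. Their part in the member values was not tested, and the WT white to gray ratio of each member over all oligodendrocytes is also given below within each batch. Of 29539 cell barcodes, 92 occurred in 2 or more libraries, at most 15 in any pair of libraries.

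Together, the 9 genes made up 2.16% to 3.08% of all oligodendrocyte UMIs. Mal was the most abundant of them in 7 of 8 libraries, at 4559 to 5847 CPM, and Mbp exceeded it only in Rag1KO white matter library 2. Cnp (3355 to 4703 CPM) and Mbp (3202 to 5332 CPM) followed. Mog and Opalin were the least abundant, at 1026 to 1269 CPM and 878 to 1373 CPM. Because 1 UMI stands for 1 transcript end, these levels were not divided by gene length. All members but Opalin were found in at least 98.3% of the cells of every cluster and group examined, so that differences in them were differences of level rather than of presence.

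**Figure D1:**
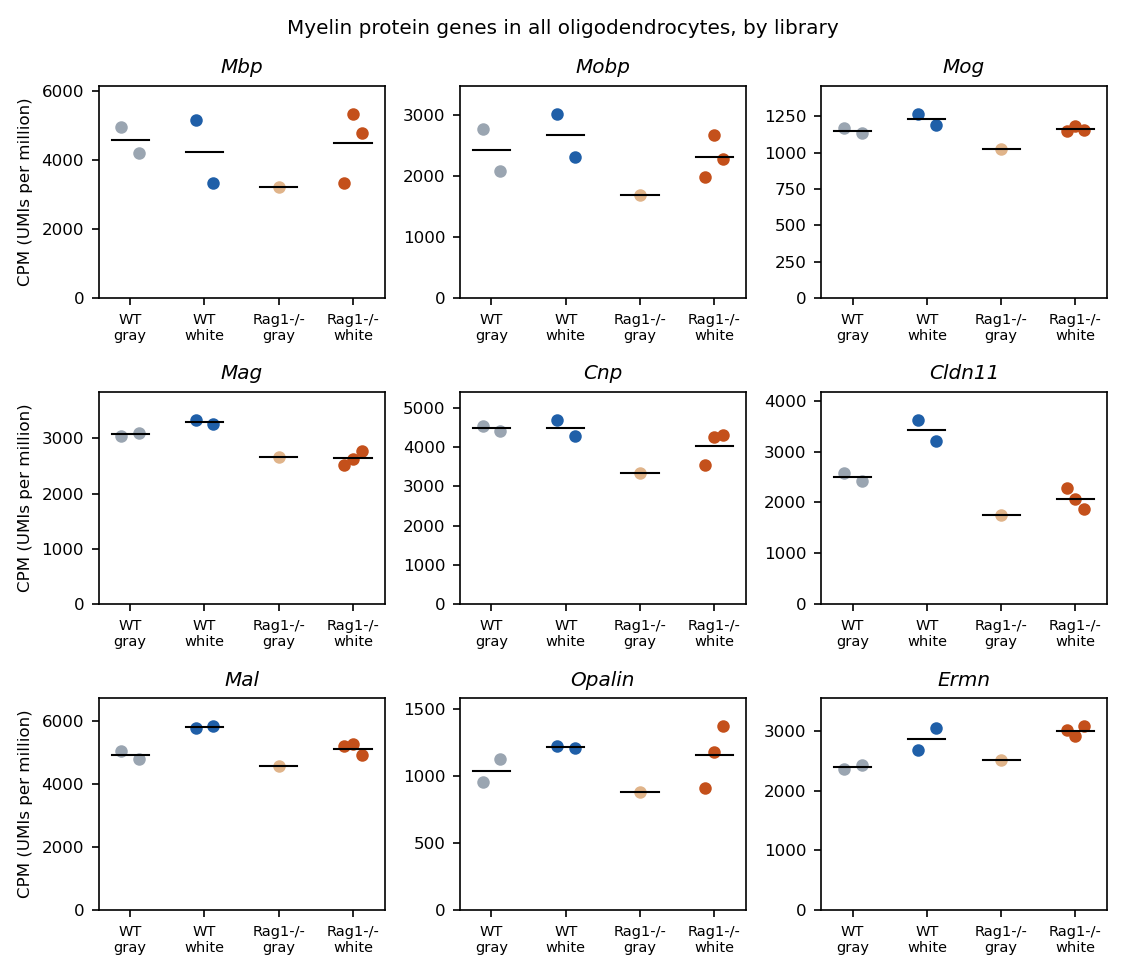
CPM of each of the 9 genes in all oligodendrocytes (vertical axis) in the 8 libraries, grouped by genotype and tissue; each point is 1 library. Cldn11 lay at 1743 to 2281 CPM in the 4 Rag1KO libraries and at 2427 to 3627 CPM in the 4 WT libraries, whereas Mbp spread from 3202 to 5332 CPM and overlapped between the genotypes.

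The first comparison asked whether oligodendrocytes of aged WT white matter carried more myelin protein transcripts than those of gray matter. Cldn11 stood at 2581 and 2427 CPM in gray matter and at 3627 and 3208 CPM in white matter. The white matter values were both higher, by 0.47 on the log2 scale (SE 0.113, edgeR adjusted p = 0.136). Ermn, the actin-binding protein, had 2365 and 2435 CPM in gray matter and 2687 and 3044 CPM in white matter (log2 difference 0.27, SE 0.105, edgeR adjusted p = 0.421). Mal had 5059 and 4788 CPM against 5780 and 5847 CPM (log2 difference 0.26, SE 0.0922, edgeR adjusted p = 0.368). For Opalin the values were 950 and 1126 CPM in gray and 1218 and 1209 CPM in white matter, again without overlap of the groups (log2 difference 0.24, SE 0.187, edgeR adjusted p = 0.818). The other members differed less. Mobp, Mag and Mog were higher in white matter by 0.15, 0.12 and 0.11 on the log2 scale, Cnp by 0.02, and Mbp was lower by a log2 difference of -0.09 (SE 0.246), with edgeR adjusted p from 0.841 to 1.00 for these 5.

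None of the 9 members passed the threshold in the test across 13067 genes, of which 131 did (1.00%; 97 higher and 34 lower in white matter). At an unadjusted p under 0.05 there were 3 members and 1252 of the 13067 genes. The DESeq2 Wald test called 1 member, Cldn11 (adjusted p = 0.0226), and 282 of the 13067 genes. Of the 9 differences, 8 were positive, with a median of 0.15 against -0.01 over all genes tested. For 6 members (Mog, Mag, Cldn11, Mal, Opalin and Ermn) the WT white matter libraries both lay above both gray matter libraries, a separation that 21.1% of 7908 genes with a mean CPM of at least 10 also showed in this direction. Of the 25 genes listed here as other myelin sheath proteins 1 was called, Trf, the iron carrier transferrin (log2 difference 0.64, SE 0.102, edgeR adjusted p = 0.0249). Of 14 tested genes of myelin lipid synthesis 0 passed, and of 8 of newly formed oligodendrocytes 0, with 0 and 2 at an unadjusted p under 0.05.

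Taking the shared mouse pool as a block changed these calls. In that fit 4 members were higher in WT white matter: Cldn11 by 0.46 (edgeR adjusted p = 2.68e-06), Ermn by 0.27 (0.0218), Mal by 0.26 (0.0415) and Opalin by 0.24 (0.0366), when 10.0% of all genes were called. The differences themselves hardly moved, the spread that they were set against did, and the blocked fit kept 1 residual degree of freedom. Within WT batch 1, the log2 ratio of white to gray matter was 0.49 for Cldn11, 0.18 for Ermn, 0.19 for Mal and 0.36 for Opalin. Within WT batch 2 these ratios were 0.40, 0.32, 0.29 and 0.10. Mobp (0.13 and 0.15), Mog (0.12 and 0.07) and Mag (0.13 and 0.07) were also higher in white matter in both pools. Mbp went in opposite directions, 0.06 in batch 1 and -0.34 in batch 2, and so did Cnp, at 0.05 and -0.04.

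**Figure D2:**
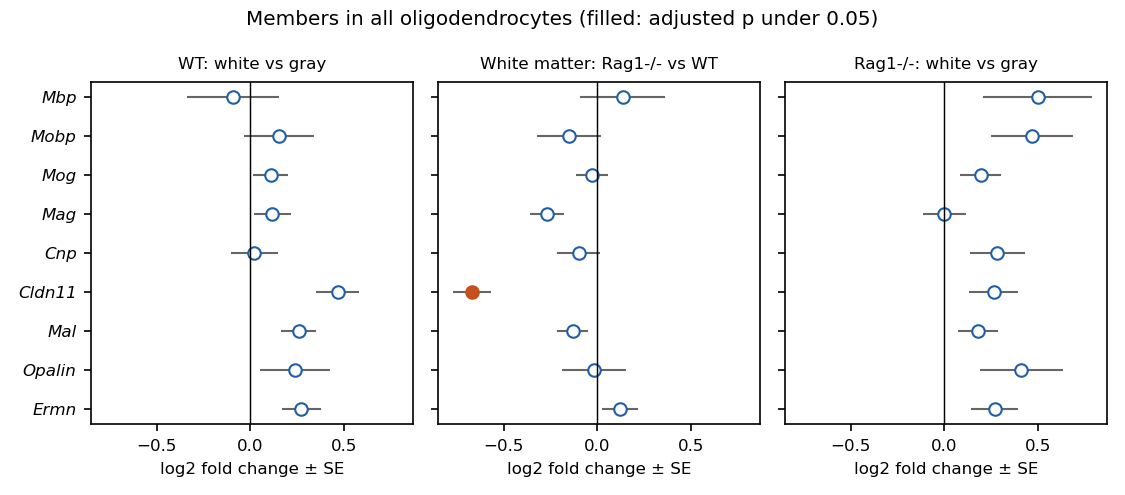
Log2 fold change of each member (horizontal axis, with its standard error as a bar) from the edgeR fit of all oligodendrocytes, for WT white against gray matter, Rag1KO white against gray matter, and Rag1KO against WT white matter. Cldn11 at -0.67 in the genotype comparison was the 1 difference that passed the adjusted threshold.

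Rag1KO mice had 1 gray matter library, so that its spread was taken from the other groups. Cldn11 stood at 1743 CPM in gray and at 2281, 2071 and 1875 CPM in white matter (log2 difference 0.26, SE 0.132, edgeR adjusted p = 0.588). Mbp had 3202 CPM in gray and 3322, 5332 and 4763 CPM in white matter (0.50, SE 0.293, edgeR adjusted p = 0.649), and its white matter library from the same pool as the gray one was the nearest to it. Mobp (0.47), Opalin (0.41), Cnp (0.28), Ermn (0.27), Mog (0.19) and Mal (0.18) were also positive, and Mag showed no direction at 0.00 (SE 0.116). White matter libraries 2 and 3 were of batch 2 and the gray matter library of batch 1, so these differences mix tissue and batch. Within the batch 1 pool, the log2 ratio of white to gray matter was 0.05 for Mbp, 0.23 for Mobp and 0.05 for Opalin. It was 0.08 for Cnp, 0.26 for Ermn, 0.16 for Mog, 0.19 for Mal and -0.08 for Mag. The median over the members was 0.27 against 0.02 over all genes tested. None of the 9 passed, when 0.436% of genes were called by edgeR. At an unadjusted p under 0.05 there were 0 members and 1257 of the 13067 genes. DESeq2 called none of the members and 208 of the 13067 genes. The 3 white matter libraries all lay above the gray one for 8 members, as they did for 32.8% of genes of mean CPM of at least 10. With the pool as a block, which rests the value on the batch 1 pool alone, Cldn11 was called (log2 difference 0.38, edgeR adjusted p = 0.0375), beside 5.27% of all genes. The Cldn11 log2 ratio of white to gray matter was 0.49, 0.40 and 0.39 in the 3 pools that had both tissues.

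Whether the white to gray difference itself depended on genotype was tested as an interaction. It was 0.59 for Mbp (SE 0.381), 0.31 for Mobp (SE 0.285), 0.26 for Cnp (SE 0.191) and -0.20 for Cldn11 (SE 0.172), all with an edgeR adjusted p of 1.00. No gene of the 13067 passed (0.00%), 236 did at an unadjusted p under 0.05, none of them a member, and DESeq2 called 0 members. With the pool as a block 36 genes passed (0.276%), none of them a member. With 1 Rag1KO gray matter library, and tissue mixed with batch among the Rag1KO libraries, the main fit cannot tell whether differences of this size are absent.

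The next comparison asked whether myelin protein transcripts of white matter oligodendrocytes differed between the Rag1KO and the WT libraries, where genotype coincides with experiment. Cldn11, the tight junction protein, did in the main fit. It stood at 3627 and 3208 CPM in the WT and at 2281, 2071 and 1875 CPM in the Rag1KO white matter libraries, with no overlap. The log2 difference was -0.67 (SE 0.102, edgeR adjusted p = 0.0154). This was the 1 member called, where 0.911% of genes were called in either direction and 0.207% were called lower. Mag, the adhesion protein next to the axon, stood at 3338 and 3251 CPM in WT and at 2516, 2626 and 2768 CPM in Rag1KO white matter, also without overlap, but did not pass (log2 difference -0.27, SE 0.0910, edgeR adjusted p = 0.441). Mal had 5780 and 5847 CPM in WT and 5197, 5261 and 4903 CPM in Rag1KO (log2 difference -0.13), and Mog 1269 and 1190 CPM against 1147, 1186 and 1155 CPM (-0.03). These 4 members were the ones whose Rag1KO libraries all lay below the WT libraries, as 19.7% of genes did.

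The remaining members showed no separation between genotypes. Mbp ranged from 3322 to 5332 CPM in Rag1KO and stood at 5143 and 3326 CPM in WT white matter, with a log2 difference of 0.13 (SE 0.225). Mobp stood at 3016 and 2307 CPM in WT and at 1982, 2670 and 2273 CPM in Rag1KO white matter, and Opalin at 1218 and 1209 CPM against 911, 1177 and 1373 CPM. Mobp (-0.15, SE 0.169), Cnp (-0.10, SE 0.113), Opalin (-0.02, SE 0.170) and Ermn (0.12, SE 0.0961) had edgeR adjusted p from 0.810 to 0.995. No gene of the other myelin lists was called, among 25 of the sheath list, 14 of lipid synthesis and 8 of newly formed oligodendrocytes. At an unadjusted p under 0.05 these lists held 6, 0 and 1, beside 2 of the 9 members and 1083 of all 13067 genes. The median was -0.10 over the members, -0.02 over the other sheath proteins and 0.01 over all genes.

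The size of the Cldn11 difference moved little, while its call depended on single libraries. Leaving out 1 library at a time gave -0.75 to -0.58. The adjusted p rose above the threshold without WT white matter library 1 (0.179), without Rag1KO white matter library 2 (0.103) and without Rag1KO white matter library 3 (0.0673), and it was 0.0553 when only the 5 white matter libraries were fitted. Cldn11 was lower in gray matter too, at 1743 CPM in the Rag1KO library against 2581 and 2427 CPM in WT. Summed counts mix the shares of clusters with the levels within them, so the genotypes were also compared within each of the 8 clusters. Levels there are shares of UMIs and not transcripts per cell.

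Cldn11 was lower in Rag1KO white matter in 8 of 8 clusters, by a log2 difference between -0.66 and -0.55, and in each cluster every Rag1KO library with at least 20 cells lay below both WT libraries. Separation in this direction was shown by 16.5% of pairs of a gene and a cluster, and in all 8 clusters by 35 of 7153 genes (0.489%). The difference passed in Oligo1c (-0.62, edgeR adjusted p = 0.00931) and in Oligo2b (-0.55, edgeR adjusted p = 0.0305), where 0.920% and 0.870% of genes were called. The Oligo1c call was lost without WT white matter library 1 (edgeR adjusted p = 0.215) and without Rag1KO white matter library 3 (0.0529). The Oligo2b call held only when the library left out was Rag1KO gray matter (0.0362) or Rag1KO white matter library 1 (0.00779). In the other 6 clusters the adjusted p ran from 0.0531 in ARO to 0.377 in IRO. In ARO, the age-related oligodendrocytes, Cldn11 stood at 4731 and 4196 CPM in WT and at 3094, 2938 and 2678 CPM in Rag1KO white matter. In IRO, the interferon-responsive oligodendrocytes, it stood at 3725 and 3453 CPM in WT and at 2502 and 2045 CPM in the 2 Rag1KO libraries with enough cells (39 and 33). The 2 Cldn11 calls were the only ones among 72 pairs of a member and a cluster, when 0.802% of all pairs of a gene and a cluster were called. With equal weight for the 7 clusters that had enough cells in every white matter library, the Cldn11 difference was -0.63.

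Mag was lower in Rag1KO white matter in 8 of 8 clusters as well (-0.36 to -0.11), and in 7 of them without overlap, as 1.55% of 7153 genes were in at least 7, yet it was called in none. Mal was lower in 8 of 8 (-0.22 to -0.01), without overlap in 6 (3.33% of genes in at least 6), and the fitted difference of Ermn was positive in 8 of 8 (0.04 to 0.22), none called. The groups overlapped for Ermn in every cluster, and in Oligo2c its mean CPM was slightly lower in Rag1KO (3659 against 3676 CPM). Mog lay lower without overlap in 4 clusters (11.3% of genes in at least 4) and higher in 1. Opalin had the widest range of differences over the clusters, 2 negative and 6 positive, from -0.54 in Oligo2a (SE 0.208, edgeR adjusted p = 0.728) to 0.62 in Oligo1b (SE 0.268, edgeR adjusted p = 0.658). WT white to gray differences could be tested in the 4 clusters with enough gray matter cells (Oligo1a, 1b, 1c and 2b), and 0 of 36 pairs of a member and a cluster passed, when 0.121% of all such pairs of a gene did. Cldn11 was higher in white matter in 4 of 4 clusters (0.18 to 0.39), and so were Mal (0.15 to 0.39) and Ermn (0.06 to 0.27). With the pool as a block, 3 pairs passed, all in Oligo1c: Mal (0.39, edgeR adjusted p = 8.55e-08), Cldn11 (0.39, 5.42e-06) and Opalin (0.29, 0.00653), beside 3.07% of genes in that cluster and 1.63% of pairs over the 4 clusters. Opalin differed in direction between clusters with that block, at 0.33 in Oligo1a, -0.41 in Oligo1b and -0.07 in Oligo2b.

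Levels across clusters are given as a description, since the clusters were drawn on the same cells and partly on these genes. Opalin varied far more than any other member. Over the 5 white matter libraries its mean was 106 CPM in Oligo2a, with a range of 73.2 to 135 CPM, and 1857 CPM in ARO, with a range of 1551 to 2190 CPM. Oligo2a was the lowest and ARO the highest cluster in 5 of 5 libraries. In gray matter, which had too few ARO cells, Oligo2a stood at 32 CPM in Rag1KO and at 83 CPM in WT library 2. Between these extremes came Oligo1a (1654 CPM), Oligo1c (1648 CPM), IRO (1535 CPM), Oligo1b (1047 CPM), Oligo2b (814 CPM) and Oligo2c (665 CPM). Oligo1a and Oligo1c did not differ beyond their spread. The ratio of Oligo1c to Oligo1a was 1.02 ± 0.173 (SD over 5 libraries), with Oligo1c higher in 1 of the 5. Neither did Oligo1a and IRO differ, with a ratio of Oligo1a to IRO of 1.06 ± 0.184 (SD over 4 libraries).

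Opalin was also the one member that many cells lacked in counts. In Oligo2a of white matter, 46.6% of WT and 43.1% of Rag1KO cells had an Opalin UMI, and after each cell was thinned to 3000 UMIs the shares were 22.5% and 16.7%. Microglia, which should lack Opalin, gave a background for the Rag1KO libraries. At the same 3000 UMIs, 15.6%, 14.7% and 21.7% of Oligo2a cells in white matter libraries 1, 2 and 3 had an Opalin UMI, against 1.85%, 6.93% and 14.2% of microglia (3354, 548 and 1063 cells, after 263, 159 and 302 shallower ones were left out). Without thinning the shares were 34.1%, 44.7% and 48.7% against 3.76%, 14.4% and 22.1%, at median depths of 12612, 18273 and 13978 UMIs in Oligo2a and 5532, 6608 and 5297 UMIs in microglia. The Opalin level was 74.8, 73.2 and 116 CPM in Oligo2a and 6.32, 22.0 and 44.8 CPM in microglia of these libraries. As a ratio, the levels in Oligo2a and in microglia were nearest in library 3, though not as a difference in CPM. How much of the Oligo2a level was free RNA was not tested. In ARO of white matter, 97.7% of WT and 98.0% of Rag1KO cells had an Opalin UMI after thinning. Oligo2c, the neighbour of Oligo2a in this order, had 65.8% and 68.0%. The ratio of the highest to the lowest cluster in a library had a median of 18.6 over the 8 libraries for Opalin, against 2.09 for Mal, 1.68 for Cldn11, 1.48 for Ermn, 1.29 for Mobp, 1.23 for Mag, 1.22 for Mbp, 1.19 for Mog and 1.16 for Cnp. For Opalin it fell to 1.63 in WT gray matter library 1, where Oligo2a had 11 cells and was not counted.

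**Figure D3:**
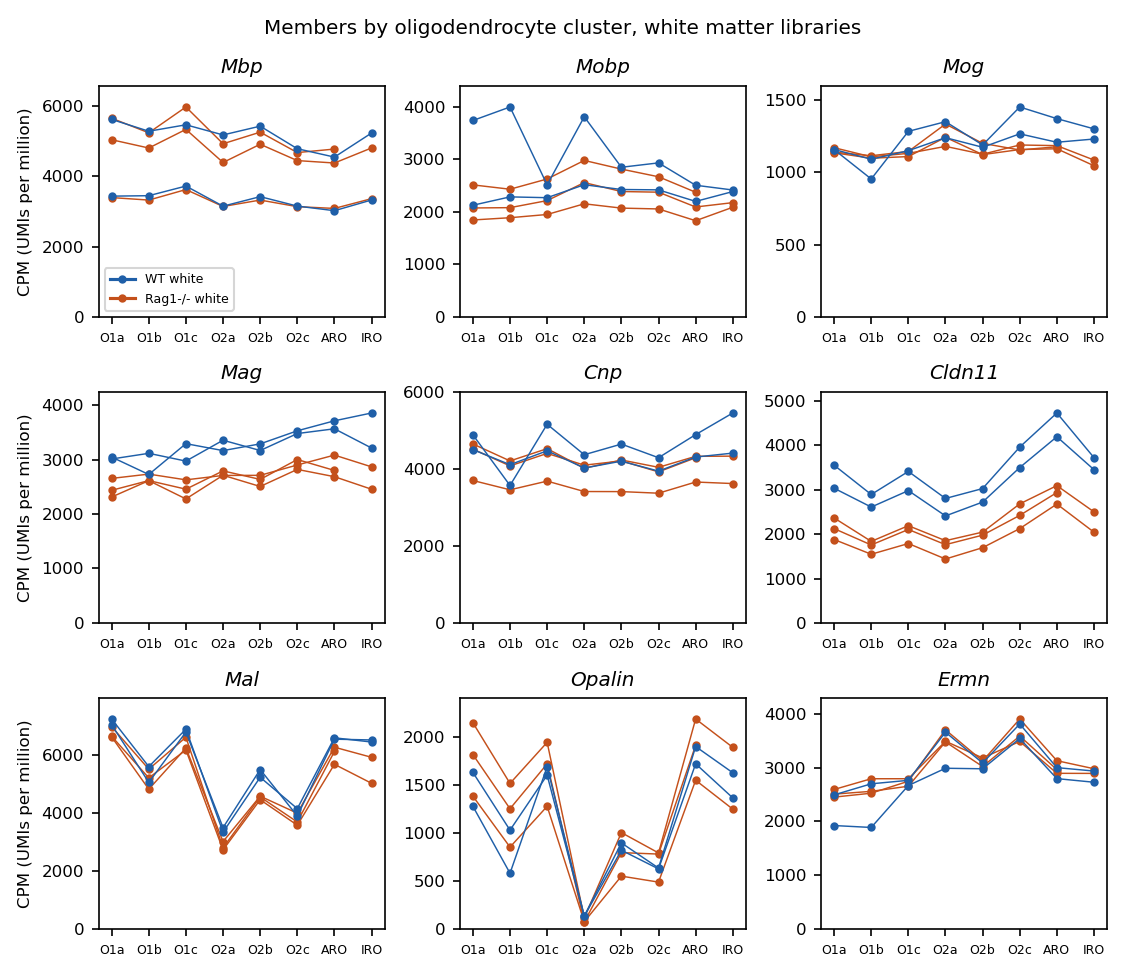
Level of each member in the 8 clusters of the 5 white matter libraries (vertical axes, CPM, from 0); each line joins the clusters of 1 library, shown where it had at least 20 cells, and colours tell the genotypes apart. Opalin fell to 73.2 to 135 CPM in Oligo2a, and Cldn11 was lower in Rag1KO than in WT libraries in each cluster.

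Mal varied over a smaller range. It was highest in Oligo1a (6901 CPM) and lowest in Oligo2a (3072 CPM) in 5 of 5 white matter libraries. The Oligo2 clusters were the 3 lowest, Oligo2b at 4860 and Oligo2c at 3858 CPM. Ermn ran the other way, highest in Oligo2c (3665 CPM, 4 of 5 libraries) and Oligo2a (3463 CPM) and lowest in Oligo1a (2393 CPM, 4 of 5 libraries). Cldn11 was highest in ARO in 5 of 5 libraries (3527 CPM), where it exceeded the next cluster, Oligo2c, by a factor of 1.20 ± 0.0384 (SD over 5 libraries). Oligo2c (2940 CPM) came next, above IRO in 4 of 4 libraries by a factor of 1.05 ± 0.0263 (SD), and Oligo2a (2055 CPM) and Oligo1b (2129 CPM) were the lowest, each in some libraries. ARO was thus the top cluster for both Opalin and Cldn11, but the lowest for Mbp in 4 of 5 libraries (3962 CPM), though by a factor of only 1.02 from Oligo2c.

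Mbp, Mobp, Mog, Mag and Cnp were nearly level across clusters in their means over the white matter libraries. In single libraries of either tissue, the ratio of highest to lowest cluster reached 2.02 (Mobp), 1.53 (Cnp), 1.52 (Mog), 1.41 (Mag) and 1.28 (Mbp). Mbp ran from 3962 CPM in ARO to 4824 CPM in Oligo1c, Mog from 1072 CPM in Oligo1b to 1268 CPM in Oligo2a, Mag from 2692 CPM in Oligo1a to 3169 CPM in ARO, and Cnp from 3893 CPM in Oligo1b to 4459 CPM in Oligo1a, its highest cluster in 4 of 5 libraries (IRO stood at 4463 CPM over 4 libraries). Mobp was highest in Oligo2a in 4 of 5 libraries (2806 CPM). One library stood apart for Mobp: in WT white matter library 1 it reached 3743 CPM in Oligo1a, 4001 CPM in Oligo1b and 3814 CPM in Oligo2a, whereas in the other 4 white matter libraries it lay at 1847 to 2516 CPM in Oligo1a. The WT gray matter library of the same pool had 4381 CPM in Oligo1a. These libraries had 61 and 47 Oligo1a cells.

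Across the 53 sums of a library and a cluster with at least 20 cells, which share libraries and depth, the members did not move as 1 block. Mal and Opalin were the closest pair (Pearson r = 0.89), and Mal and Ermn the most opposed (r = -0.56). Mbp and Cnp (r = 0.67), Cldn11 and Mag (r = 0.65), and Mog and Mag (r = 0.62) were the next closest. Against the mean of the 9 members, each scaled to its own mean, the nearest genes outside the list among 7900 were Vps28 (r = 0.84), a sorting protein of endosomes, Tm7sf3 (r = 0.82), Clic4 (r = 0.81), Bcar1 (r = 0.80) and Ddr1 (r = 0.80), a collagen receptor. The members are part of that mean, and among them Cnp had the highest r (0.84) and Ermn the lowest (-0.20).

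The last question was how much of the members' RNA was found in microglia, where it can be free RNA of the suspension, RNA of engulfed myelin or RNA of the cell itself; these counts do not tell the 3 apart. It was taken up for the 4 Rag1KO libraries. The members made 0.0259% of the microglial UMIs of gray matter. For white matter libraries 1, 2 and 3 the shares were 0.0274%, 0.0557% and 0.0886%. The mean microglial cell of gray matter had 1.55 member UMIs, and that of the white matter libraries 1.68, 3.79 and 5.07. The gray matter library and the white matter library of the same pool were thus nearly equal, and the 2 white matter libraries of batch 2 were higher. Oligodendrocytes made 27.7% of all cells in the gray matter library and 40.0%, 53.2% and 58.3% in the white matter ones, in the same order as the member UMIs, and the part of this in the result was not tested. The largest share in 1 microglial cell was 1.60%, in white matter library 3, where the members took 2.65% of oligodendrocyte UMIs. No microglial cell of that library held more than 20 member UMIs. That share therefore came from a cell far shallower than the microglial median of 5297 UMIs. Of the 7421 microglia, as selected by the authors, 0 were above 2%. Among cells with microglial markers outside the authors' tables, 10, 2 and 17 were above 2% in white matter libraries 1, 2 and 3. The 0 holds for the microglia that the authors selected. Doublets were not called again, so whether the marker-classed cells above 2% were single microglia was not tested.

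Other cells of the same libraries also held member UMIs, in amounts that differed between cell classes. In white matter library 3, cells with neuronal markers held 5.50 member UMIs on average and those with T or NK cell markers 3.87, against 5.07 in microglia. In library 2, cells with neuronal markers held 4.03 against 3.79 in microglia, and in library 1 they held 1.33 against 1.68. Cells with microglial markers outside the authors' tables held more on average. Their means were 33.9 in the gray library and 106, 19.2 and 63.3 in white libraries 1, 2 and 3. Their medians were 2, 105, 4 and 7 in the same order, against 1, 1, 3 and 5 in microglia. The median depths of these cells were 7236, 11514, 1714 and 5815.5 UMIs. After thinning to 1000 UMIs, 25.3%, 48.2% and 61.4% of microglia in white matter libraries 1, 2 and 3 had a member UMI, against 25%, 45.5% and 69.0% of the 36, 33 and 42 cells with neuronal markers. Median depths were 5532, 6608 and 5297 UMIs in microglia and 5074.5, 5985 and 5913.5 UMIs in those cells. Unthinned, the microglial shares were 77.4%, 94.3% and 98.2%. In gray matter 23.4% of thinned microglia and 24.8% of thinned cells with astrocyte markers had a member UMI (76.0% and 59.5% unthinned, median depths 5919 and 3367). For cells with astrocyte markers the thinned shares were 25.2%, 64.2% and 77.9% in white matter libraries 1, 2 and 3. The microglial shares were below those of astrocyte-marker cells in white matter libraries 2 and 3 and level with them in gray matter and in library 1, and above those of cells with T or NK cell markers in libraries 1 and 3 (17.4% of 46 and 45.2% of 31 cells). No expression by microglia was read from these shares, and the level of free RNA was not measured on its own.

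**Figure D4:**
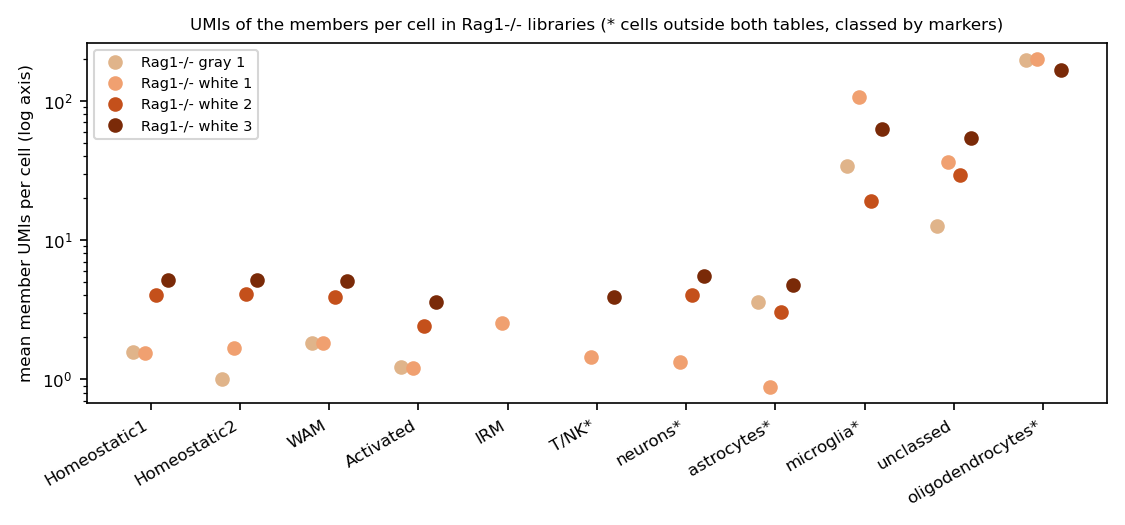
Mean number of member UMIs per cell (vertical axis, log scale) in microglia clusters and in other cells classed by markers, for the 4 Rag1KO libraries (points). In white matter library 3, homeostatic, white matter-associated and activated microglia held 5.18, 5.10 and 3.60 UMIs, beside 5.50 in cells with neuronal markers.

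Among microglial clusters of a white matter library, activated microglia held the fewest member UMIs per cell. In white matter library 3, the clusters Homeostatic1, Homeostatic2 and WAM, the white matter-associated microglia, held 5.18, 5.17 and 5.10 member UMIs per cell, and activated microglia 3.60 at a lower depth (a median of 2966 UMIs against 7236 in WAM). In white matter library 2 the values were 4.00, 4.12, 3.88 and 2.39, and in white matter library 1 they were 1.54, 1.68, 1.83 and 1.21, with 2.51 in the 37 interferon-responsive microglia. WAM held more than both homeostatic clusters in library 1 but not in libraries 2 and 3. Per UMI the order was another one. The members made 0.0669% of UMIs in WAM and 0.101% in activated microglia of library 3, 0.0449% and 0.0779% in library 2, and 0.0238% and 0.0237% in library 1, and WAM lay below both homeostatic clusters in all 3 libraries. After thinning to 1000 UMIs, 51.3% of WAM and 65.4% of Homeostatic1 cells in library 3 had a member UMI, and 23.6% and 26.7% in library 1.

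Set against the level in oligodendrocytes of the same library, the members were not carried in equal proportion. In gray matter, the microglial level was 2.15% of the oligodendrocyte level for Mag, 2.02% for Cnp and 1.44% for Mbp, but 0.51% for Cldn11 and 0.55% for Ermn. In white matter library 1, Cnp and Mag were again the highest, at 1.97% and 1.91%, with Ermn at 0.57%. In library 3, Mbp was the highest at 5.45%, followed by Mag (4.03%) and Cnp (3.67%), and Ermn and Mal were the lowest at 1.67% and 1.97%. Ermn and Mal were among the 4 lowest members in all 4 libraries. Of the member UMIs in gray matter microglia, Cnp made 26.1% and Mag 22.0%, and Mal 12.6%, whereas in oligodendrocytes of that library these shares were 15.5%, 12.3% and 21.1%. In the cells with neuronal markers of white matter libraries 1, 2 and 3, which held 48, 133 and 231 member UMIs, Cnp made 29.2%, 13.5% and 17.3% of them and Mag 10.4%, 7.52% and 8.66%. In microglia of these libraries Cnp made 25.6%, 18.6% and 17.8% and Mag 17.5%, 12.6% and 12.6%. Of the genes of the wider myelin lists with at least 100 oligodendrocyte UMIs and any microglial UMI in each library, those that microglia are known to express stood far higher in the geometric mean of 4 libraries, Itpr2 at 482%, Cd9 at 215% and Tcf7l2 at 147% of the oligodendrocyte level, and Enpp6 (0.94%), Gpm6b (0.97%) and Gjb1 (0.98%) were the lowest.

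**Figure D5:**
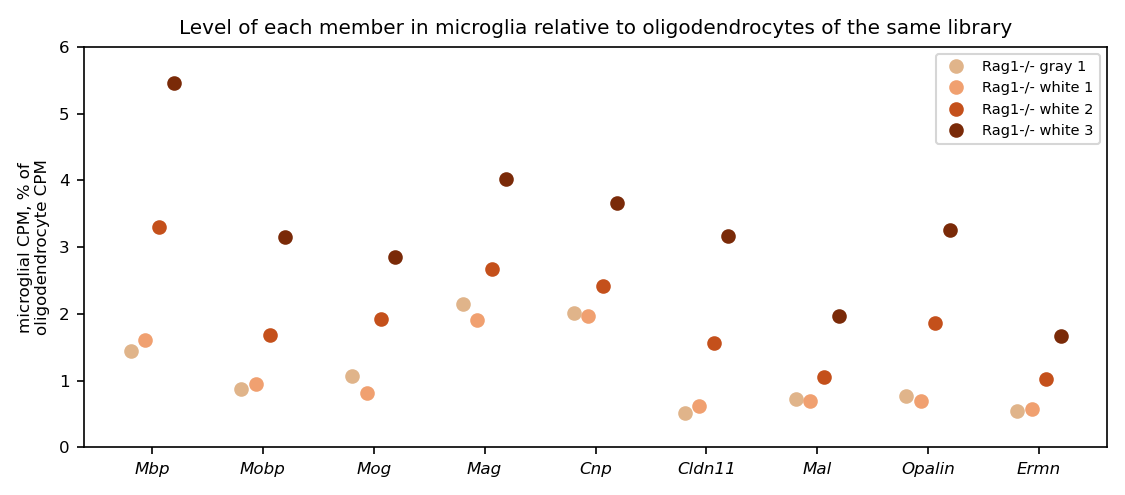
Level of each member in microglia as a percentage of its level in oligodendrocytes of the same library (vertical axis), for the 4 Rag1KO libraries (points). Mag and Cnp lay at 2.15% and 2.02% in gray matter and Ermn at 0.55%, and Mbp reached 5.45% in white matter library 3.

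In summed microglia, the fitted difference between Rag1KO white and gray matter was positive for every member, and none passed. White matter library 1 lay below the gray one for Mag, Mog (9.30 against 10.98 CPM) and Opalin (6.32 against 6.74 CPM). This fit held 4 libraries, and its 1 gray matter library was assumed to vary like the 3 white ones. Cldn11 stood at 9.0 CPM in gray and at 14.2, 32.4 and 59.4 CPM in white matter (log2 difference 2.19, SE 0.755, edgeR adjusted p = 0.218). Mbp stood at 46.2 CPM in gray and at 53.6, 176 and 260 CPM in white matter (2.05, SE 0.775, edgeR adjusted p = 0.262). Mag changed least, from 57.1 CPM in gray to 47.97, 70.2 and 112 CPM in white matter, with overlap (0.65, SE 0.409, edgeR adjusted p = 0.513). The median difference was 1.46 over the members and 0.02 over all 12660 genes tested, of which 3.13% were called. The calls of this fit changed with the libraries held, and its 1 gray matter library gives no spread of its own. Without white matter library 1, what remains is batch 2 white matter against batch 1 gray matter. Tissue and batch cannot then be told apart. Of the wider lists, the full fit with 1 gray matter library gave 0.77 for Cd9, a tetraspanin, and 0.69 for Degs1, a desaturase of ceramide synthesis. Fyn, a kinase of early oligodendrocytes, stood at 1.20, and Tcf7l2, a transcription factor of newly formed oligodendrocytes, at -0.86. These genes were picked from the lists by their calls in that fit.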

How the data were processed

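Droplet libraries were sequenced from dissociated gray and white matter, and the authors deposited UMI counts per gene and cell (unit: counts), aligned to mm10 with Cell Ranger (version 4 in the submitters' notes; the methods name other versions for other batches), with cells filtered and clustered by the authors. The 2 features Gm42418 and AY036118 were left out, as by the authors, and 8171 cells of 4 libraries of another series were not used. Cells without an entry in the count tables (9 microglia) were dropped, and doublets were not called again.

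Counts were summed per library, or per library and cluster with at least 20 cells, over the genes listed for both genotypes; libraries, not cells, were the replicates. edgeR 4.0.16 (R 4.3.3, limma 3.58.1) was run over 8 libraries in 4 groups: genes were kept by filterByExpr, scaled by TMM and tested by quasi-likelihood (two-sided), with Benjamini-Hochberg adjustment over all genes and a threshold of 0.05. DESeq2 1.42.0 and the other alternatives are given below; the script was tested on simulated counts. CPM were computed from library totals of the summed cells. The members and lists were chosen with earlier results of these data known. Named were the members, up to 3 called genes in each direction per list and comparison, the 5 genes most like the members' mean and the 3 highest and lowest genes by microglial ratio. Cells outside the oligodendrocyte and microglia tables were classed by the marker list with the most UMIs (at least 5 UMIs of 2 genes, and 3 times the next list). Cells were thinned at random to 1000 UMIs (oligodendrocytes to 3000) for shares of cells. Shares and counts carry counting error only.

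According to the study's list of mice, the WT gray and white matter libraries of a batch came from the same mice, so that the pool pairs them; their deviations from the group means had r = 0.409 over 13067 genes, the same value in both pools since each group held 2 libraries. Batch numbers do not pair the genotypes (r = 0.0586, 0.138 and -0.0661).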

Additional observations from a re-analysis of the deposited data

Results flagged for a closer look

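Mag went in opposite directions between genotypes when white was compared with gray matter within mouse pools. The log2 ratio was -0.0803 in the Rag1KO pool and 0.13 and 0.07 in the WT pools. The difference was not tested with replicates of the Rag1KO pool, and the interaction over all libraries was -0.12 (SE 0.153, edgeR adjusted p = 1.00).

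Cells with microglial markers that the authors' microglia and oligodendrocyte tables do not hold carried more member RNA, as a share of their summed UMIs, than the microglia in the table. In the Rag1KO gray matter library, 129 such cells had 0.413% of their UMIs from the 9 members. In the Rag1KO white matter libraries 1, 2 and 3 the shares were 0.975%, 0.377% and 0.943%, over 304, 83 and 228 cells. Microglia in the table had 0.0259% to 0.0886%. According to the methods, small clusters rich in microglial markers were removed while the Rag1KO oligodendrocytes were prepared. Whether the cells counted here belonged to those clusters, or were single cells, was not tested.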

How the results depend on the processing

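Alternatives were other scalings, no filter, DESeq2, a pool block, fewer cells or libraries, and each library left out in turn. Of the members called, WT white against gray matter gave 0, but 1 by DESeq2 and 4 with the pool as a replicate block. Rag1KO white against gray matter gave 0. No call is read from its blocked fit, whose spread came from the WT pools alone. The white matter genotype comparison gave 1, but 0 with white matter libraries alone, and its call was lost with some single libraries left out. Within clusters, the genotype comparison gave 2 pairs, but 1 with at least 50 cells, 4 with library totals, 5 by DESeq2 and 0 to 4 with a library left out; WT white against gray gave 0, but 3 with the block and 0 to 1 with a library left out. In microglia 0 became 0 to 9 with a library left out. For pairs within clusters, the share of all pairs of a gene and a cluster called was 0.802% in the main genotype fit. It was 1.63% in the WT fit with the block. Shares under the other alternatives are not given, so those counts of pairs are not set against a background. Outside the Rag1KO tissue comparison, the block changed no other member call, and batch number as a block across genotypes shared only a number. Over all genes, calls numbered 131 (62 to 1310; 2 to 142 with a library left out) for WT tissue, 119 (104 to 195; 80 to 137) for genotype, 57 (50 to 688; 16 to 264) for Rag1KO tissue, 0 (0 to 36; 0 to 4) for the interaction and 396 (430 to 641; 188 to 2846) in microglia. The fewest calls for WT tissue came without WT gray matter library 2, and the most for Rag1KO tissue and in microglia without Rag1KO white matter library 1. All member calls in microglia came from that same microglial fit, the one with the most calls over all genes. Tissue and batch cannot be told apart in it, so no member call is read from it.

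Small differences changed sign. With ARO and IRO left out, WT Cnp was -0.0035 and Opalin -0.023, the genotype difference of Opalin 0.093 and Rag1KO Mag -0.052. With the deepest cells left out, Opalin was 0.016 between genotypes. Rag1KO Mag was -0.012 with DESeq2 size factors, -0.013 with library totals, -0.020 without a filter, -0.011 by DESeq2 and -0.092 with the replicate block, where the interaction of Opalin was -0.20. With a library left out, the ranges that crossed 0 were -0.43 to 0.18 (Mbp), -0.044 to 0.34 (Mobp) and -0.040 to 0.081 (Cnp) for WT tissue. They were -0.14 to 0.47 (Mbp), -0.33 to 0.047 (Mobp), -0.071 to 0.011 (Mog) and -0.18 to 0.13 (Opalin) for genotype, -0.075 to 0.043 (Mag) for Rag1KO tissue, and -0.0084 to 0.33 (Opalin) and -0.10 to 0.094 (Ermn) for the interaction. The causes were not tested. The pool block in microglia could not be fitted with 1 shared pool, and WT without both batch 1 libraries was not run. Oligo2c, ARO and IRO had 0 to 5 cells per gray matter library and were not compared there (284 to 1119 oligodendrocytes each).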
